A study of Homo sapiens with 12 samples.

Results

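The mRNAs of the nuclear-encoded subunits of the respiratory chain and ATP synthase were described across 12 RNA-seq libraries of SK-N-DZ, a MYCN-amplified human neuroblastoma (NB) cell line. The members were chosen by gene symbol: NDUFA, NDUFB, NDUFC, NDUFS and NDUFV symbols for complex I, SDHA to SDHD for complex II, UQCR symbols for complex III, COX4 to COX8 symbols for complex IV and ATP5 symbols for complex V, with pseudogenes left out. The rule found 86 of the 43769 genes in the count table, 37 of complex I, 4 of complex II, 9 of complex III, 17 of complex IV and 19 of complex V. Symbols outside these patterns, such as NDUFAB1 and CYC1, are subunits too and were kept in a separate list. All libraries came from a line with a doxycycline-inducible short hairpin RNA against ARID1A, a DNA-binding subunit of the SWI/SNF chromatin remodelling complex, and the study derived such lines as single clones. Libraries labelled C (control) received neither agent, libraries labelled D received doxycycline for 4 days, libraries labelled I received interferon gamma (IFNγ) for 24 hours, and libraries labelled DI received both, with 3 libraries in each group. No library received doxycycline without carrying the hairpin, so the agent and the hairpin cannot be told apart. Nothing in the labels says that the replicates came from separate cultures, and p-values then measure only the spread between these libraries, which may be technical.

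Complexes I to IV pass electrons from NADH and succinate to oxygen in the inner mitochondrial membrane, and complexes I, III and IV pump protons as they do so. Complex V, the ATP synthase, lets the protons flow back through a rotating ring and makes ATP in its catalytic head. Apart from complex II, each complex combines many nuclear-encoded subunits, which are imported from the cytosol, with subunits encoded by mitochondrial DNA. Its assembly thus draws on both genomes.

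Promoters are shown for 5 members, COX7C, COX6B1, UQCRFS1, UQCRC1 and UQCRC2, because these had the smallest p-values in the comparison of D with C. Each run is the RefSeq sequence (GRCh38.p14) from 250 bases before to 50 bases after the annotated start, written 5′ to 3′ along the gene. Capitals mark matches, on either strand, to letters bound by factors known for nuclear respiratory genes: GCGCANGC for NRF1, CCGGAAG for the ETS factors that include GABP, and AAGATGG for YY1.
COX7C (chr5:86617691-86617990, plus strand): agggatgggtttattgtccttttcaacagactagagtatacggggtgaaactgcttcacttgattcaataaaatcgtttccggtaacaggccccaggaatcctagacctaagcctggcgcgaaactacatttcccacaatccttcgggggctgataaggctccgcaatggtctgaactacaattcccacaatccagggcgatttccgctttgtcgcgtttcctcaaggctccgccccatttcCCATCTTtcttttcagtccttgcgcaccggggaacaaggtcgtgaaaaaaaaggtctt
COX6B1 (chr19:35648073-35648372, plus strand): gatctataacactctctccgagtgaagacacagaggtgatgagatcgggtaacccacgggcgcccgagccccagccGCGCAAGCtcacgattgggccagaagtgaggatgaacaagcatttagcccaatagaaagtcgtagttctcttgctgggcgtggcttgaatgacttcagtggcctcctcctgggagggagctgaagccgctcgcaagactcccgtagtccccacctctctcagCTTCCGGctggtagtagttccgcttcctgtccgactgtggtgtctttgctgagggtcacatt
UQCRFS1 (chr19:29213102-29213401, minus strand): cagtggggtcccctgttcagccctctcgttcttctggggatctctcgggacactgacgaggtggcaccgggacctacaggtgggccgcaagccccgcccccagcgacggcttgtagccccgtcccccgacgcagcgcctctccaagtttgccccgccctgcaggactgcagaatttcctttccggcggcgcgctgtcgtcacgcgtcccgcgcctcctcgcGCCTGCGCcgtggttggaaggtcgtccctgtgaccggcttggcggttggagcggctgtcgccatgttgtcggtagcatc
UQCRC1 (chr3:48609597-48609896, minus strand): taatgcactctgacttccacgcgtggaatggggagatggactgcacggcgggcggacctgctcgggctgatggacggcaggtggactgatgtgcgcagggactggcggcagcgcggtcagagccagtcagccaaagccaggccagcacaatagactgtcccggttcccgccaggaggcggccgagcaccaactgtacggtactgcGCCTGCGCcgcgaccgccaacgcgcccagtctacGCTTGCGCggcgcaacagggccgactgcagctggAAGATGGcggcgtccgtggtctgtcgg
UQCRC2 (chr16:21953111-21953410, plus strand): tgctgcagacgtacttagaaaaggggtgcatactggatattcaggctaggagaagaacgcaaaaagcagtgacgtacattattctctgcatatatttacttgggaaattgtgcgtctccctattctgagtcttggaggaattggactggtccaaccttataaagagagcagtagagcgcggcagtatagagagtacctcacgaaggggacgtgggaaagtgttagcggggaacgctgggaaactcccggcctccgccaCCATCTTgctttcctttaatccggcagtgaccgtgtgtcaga
The COX7C window held 1 YY1 match and the UQCRC2 window held 1 YY1 match, both written as the reverse complement. The COX6B1 window held 1 NRF1 and 1 ETS match, the UQCRFS1 window 1 NRF1 match, and the UQCRC1 window 2 NRF1 matches and 1 YY1 match. No set of letters was present in all 5 windows. Some members, NDUFB9, UQCRB and COX6C among them, were left out of the promoter comparison. Promoters were compared for 69 of the 86 members, and the member shares below cover only these. NRF1 letters were in 28 of them (40.6%), against 12.5% of all 27305 promoters and 21.4% of the 11735 promoters of genes with counts in every library. ETS letters were in 20 (28.99%, against 10.7% and 18.6%) and YY1 letters in 16 (23.2%, against 6.06% and 7.43%). At least 1 of the 3 was in 45 of the 69 (65.2%), against 25.2% of all promoters and 39.8% of those of detected genes. These matches describe the letters only and are not measured binding sites.

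The libraries held 16469832 to 21790869 counts, and 3 counts corresponded to 0.135 to 0.187 CPM (counts scaled to a common library size, with TMM factors). Without molecular identifiers, such a floor covers counting error only. ARID1A, the target of the hairpin, was at 165 to 197 CPM in the C libraries and 158 to 197 CPM in the D libraries, so the labels C and D were not separated by it (log2 fold change −0.09 ± 0.11 (SE), adjusted p = 0.788, edgeR quasi-likelihood test with Benjamini-Hochberg adjustment over 15828 genes). It was at 192 to 203 CPM in the I libraries and 133 to 151 CPM in the DI libraries, without overlap (log2 fold change −0.44 ± 0.11, adjusted p = 0.115, and 0.0111 with the replicate number as a block). Directions between D and C are therefore directions between libraries with these labels. The study reports ARID1A knockdown in its SK-N-DZ hairpin lines by qPCR and Western blot, which are other measures than these counts. The NB markers PHOX2A, HAND2, GATA3, ISL1, DBH and MYCN had means of at least 71.4 CPM in every group. TH, the first enzyme of catecholamine synthesis, had means of 41.7 CPM in C and 3.02 CPM in D. Of the 8 NB markers tested, TH included, 0 passed by edgeR between these groups. Without overlap of the libraries, 0 lay lower in D and 1 higher. With the replicate block 2 fell, and DESeq2 called 1 lower. The 5 immune markers summed to at most 0.901 CPM in any library, with CD3E at 0 counts in all 12, and the 4 epithelial markers summed to at most 2.95 CPM. The 5 fibroblast markers summed to 32.7 to 57.3 CPM in the C libraries and 23.0 to 52.9 CPM in the D libraries, and with IFNγ to 65.9 to 108 CPM (I) and 45.8 to 85.9 CPM (DI), most of it PDGFRB, and their part in the results was not tested. Libraries with the same replicate number deviated together from their group means (18 of 18 pairs, correlation 0.338 to 0.804), so many results are also given with the replicate block. A missing block value does not mean that the block left the result unchanged.

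Subunit mRNAs took 0.669 to 0.918% of all counts. The C libraries gave 0.845 ± 0.063% and the D libraries 0.774 ± 0.097%, the I libraries 0.799 ± 0.099% and the DI libraries 0.776 ± 0.095% (mean ± SD, n = 3). These ranges overlapped between all groups. Per kilobase of annotated exon, the highest member was ATP5F1B, the catalytic beta subunit of the ATP synthase, at 418 CPM per kb over all libraries, followed within the other complexes by NDUFS5 (266, complex I), COX8A (240, complex IV), UQCRH (112, complex III) and SDHB (23.0, complex II). The median level per kb was 51.6 for complex IV, 49.3 for III, 30.5 for V, 20.9 for I and 11.1 for II. Exon length here joins all annotated isoforms, so a gene with long rare isoforms appears low on this scale. The lowest tested member per kb of each complex was NDUFV2 (0.25, complex I), SDHD (5.57, complex II), UQCRHL (1.84, complex III), COX6B2 (0.102, complex IV) and ATP5MG (5.11, complex V).

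A few members had almost no counts. COX6A2 and COX7B2, isoforms known from striated muscle and testis, had 0 counts in every library, which allows up to 0.135 to 0.187 CPM. COX7A1, a muscle and heart isoform, had 0 to 8 counts, COX8C 0 to 5 and ATP5MGL 0 to 4. These 5 were not tested, which left 81 members in the tests, 37 of complex I, 4 of II, 9 of III, 13 of IV and 18 of V. The 3 members NDUFV2, NDUFA7 and NDUFA13, subunits that every complex I needs, were also close to the floor. NDUFV2 had 2 to 22 counts, NDUFA7 3 to 26 and NDUFA13 16 to 64. All of them share exon bases on the same strand with another annotated gene, NDUFV2 over 28.4% of its exon length, NDUFA7 over 32.3% and NDUFA13 over 21.0%. Whether this sharing bears on their counts was not tested, and the low counts were not read as low expression. Members with similar same-strand sharing had few or many counts over the 12 libraries. They were 88 for COX6B2 (30.9%), 3632 for NDUFB8 (33.8%) and 27606 for COX8A (34.5%). In all, 46 members share some exon bases with another gene, and strand use in the counting is not stated in the sources used here, so counts of such members are uncertain to that extent. Pseudogene rows of these families held 1509 counts in all, against 1825306 for the members.

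The comparison of D with C asked what 4 days of doxycycline did to these mRNAs without IFNγ. COX7C, a small subunit of cytochrome c oxidase, fell by 0.55 on the log2 scale and was the only one of 81 members with an adjusted p under 0.05 (1.23% of all tested genes passed in either direction). Most of the other members leaned the same way: 70 of 81 had a fold change below 0 (50.1% of all tested genes did), and the median over the members was −0.20, against −0.00 over all genes. The median was −0.10 without D replicate 2, −0.13 without C replicate 3 and −0.30 without D replicate 3. At an unadjusted p under 0.05 there were 12 members, all lower in D, where 14.2% of all tested genes reached it in either direction and 6.81% by being lower. With the replicate block, 20 members fell and 0 rose (7.67% of all tested genes fell), and DESeq2 called 5, all lower (2.71% of all tested genes were called lower). The 3 D libraries lay below all 3 C libraries for 18 members (9.10% of all tested genes) and above them for 0 (10.1%). The lean was smallest in complex I, with a median of −0.09 and 26 of 37 members below 0. It was −0.17 in complex II (4 of 4 below 0), −0.24 in complex III (9 of 9), −0.29 in complex IV (13 of 13) and −0.23 in complex V (18 of 18). In bulk RNA, fewer cells of one kind and less RNA per cell cannot be told apart.

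**Figure D1:**
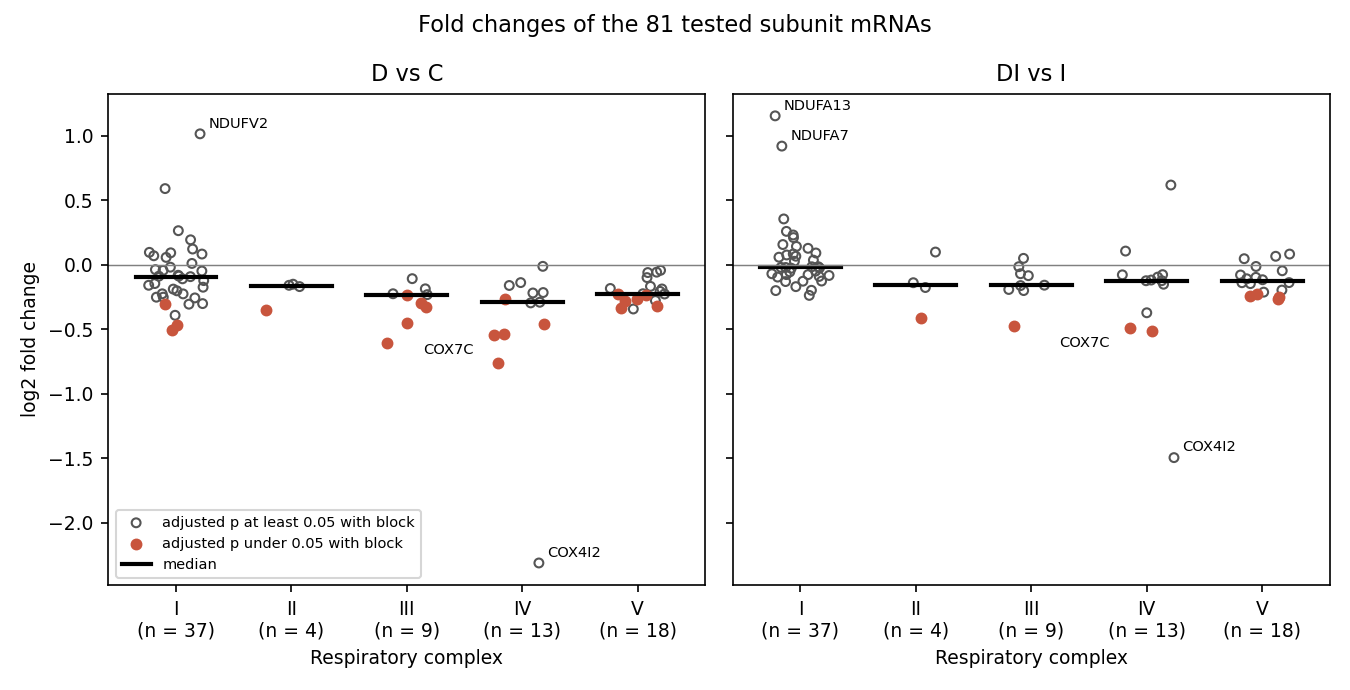
Log2 fold changes (vertical axis) of the 81 tested subunit mRNAs by respiratory complex (horizontal axis, number of members in brackets) for D vs C and DI vs I. Each circle is 1 member, filled where the adjusted p with the replicate block was under 0.05 (20 members for D vs C, 8 for DI vs I), and bars are medians, which run from −0.09 in complex I to −0.29 in complex IV for D vs C.

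In complex IV, cytochrome c oxidase, COX7C was at 159, 149 and 166 CPM in C replicates 1, 2 and 3 and at 106, 103 and 115 CPM in D. It was at 163, 136 and 163 CPM in I and at 117, 102 and 109 CPM in DI. Every library with doxycycline lay below every library without it. The D vs C difference was −0.55 ± 0.10 (SE; adjusted p = 0.0278, and 0.00106 with the block), and the same-numbered pairs differed by −0.58, −0.53 and −0.53. The call was lost in each of the 6 fits without 1 of the C or D libraries (adjusted p 0.0561 to 0.132), while the fold change stayed between −0.60 and −0.51. COX6B1, which sits on the intermembrane face and joins the monomers of the enzyme, was at 98.8, 86.2 and 109 CPM in C and at 57.8, 45.2 and 70.4 CPM in D. The groups did not overlap, with a difference of −0.76 ± 0.19 (adjusted p = 0.0901, and 0.000795 with the block). Replicate 2 was the lowest of its group for COX6B1 in all 4 groups.

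**Figure D2:**
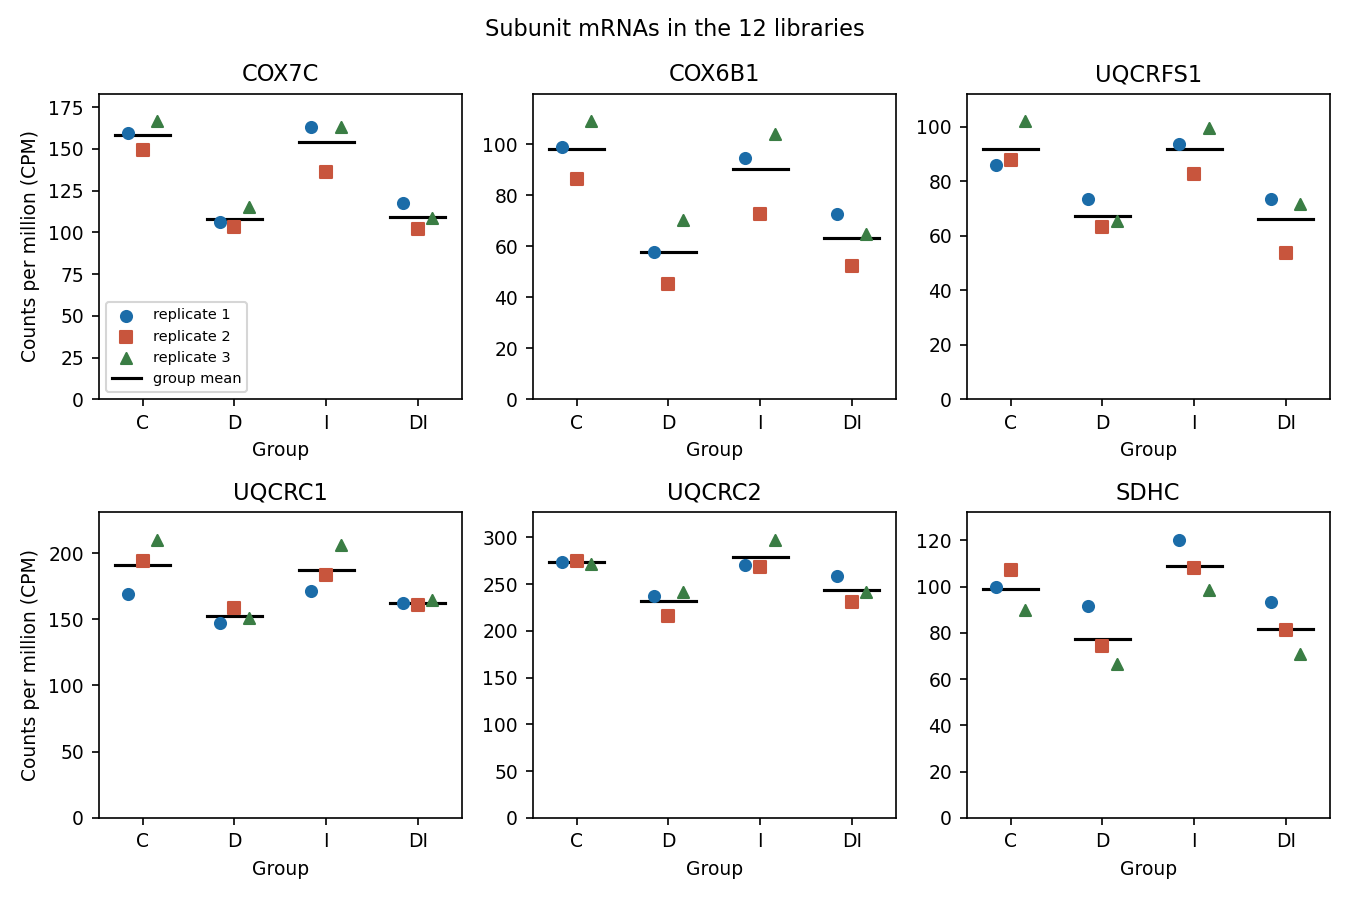
CPM (vertical axis) of 6 subunit mRNAs in the 12 libraries by group (horizontal axis), with 1 symbol per library, shaped by replicate number, and a bar at the mean of each group. For COX7C the 6 libraries without doxycycline lie between 136 and 166 CPM and the 6 with it between 102 and 117 CPM.

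Several complex IV subunits exist as isoforms, and the expressed ones in SK-N-DZ were mostly the widely expressed forms. COX4I1, the ubiquitous form of subunit 4, was at 343 ± 24.1 CPM in C and 294 ± 43.9 CPM in D (difference −0.22 ± 0.15, adjusted p = 0.568). COX4I2, its form known from lung and low oxygen, was at 14.1, 7.25 and 13.0 CPM in C and at 0.477, 5.48 and 0.927 CPM in D. It was at 11.6, 9.38 and 13.6 CPM in I and at 0.257, 9.85 and 2.16 CPM in DI. Replicates 1 and 3 with doxycycline thus lay far below all libraries without it, and replicate 2 did not. The D vs C difference was −2.31 ± 1.04 and missed the threshold (adjusted p = 0.349, and 0.0609 with the block). It ranged from −4.03 without D replicate 2 to −1.83 without D replicate 1. The DI vs I difference was −1.50 ± 1.00 (adjusted p = 0.629), −3.23 without DI replicate 2 and −0.95 without DI replicate 1. COX4I2 shares no exon bases with another gene.

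**Figure D3:**
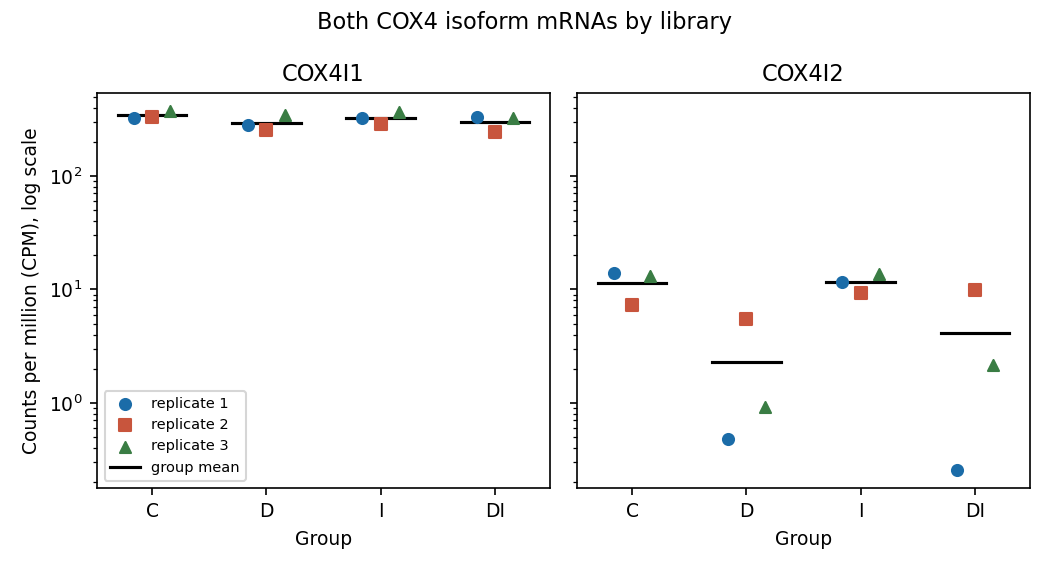
CPM on a log axis (vertical) of COX4I1 and COX4I2 by group (horizontal), with 1 symbol per library, shaped by replicate number, and a bar at each group mean. COX4I1 lies between 245 and 370 CPM in every library, whereas COX4I2 lies at 0.257 to 2.16 CPM in replicates 1 and 3 of D and DI and at 5.48 and 9.85 CPM in replicate 2 of these groups.

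Of the other isoform pairs, COX6A1, the non-muscle form, differed by −0.54 ± 0.34 between D and C (adjusted p = 0.528, and 0.0330 with the block). COX7A2, the liver-type form, differed by −0.46 ± 0.34 (adjusted p = 0.602, and 0.0142 with the block). COX7A2L, which takes part in supercomplex assembly, differed by −0.14 ± 0.13, COX7B by −0.16 ± 0.16 and COX8A by −0.30 ± 0.33. COX6B2, the testis form of COX6B1, had 1 to 15 counts and differed by −0.01 ± 0.75. COX5A, a nuclear-encoded matrix subunit, differed by −0.27 ± 0.19 (adjusted p = 0.580, and 0.0430 with the block). The list of isoform pairs also holds UQCRH and UQCRHL of complex III, but not COX5A. All its 11 tested isoforms were below 0 in D vs C, where 50.1% of all tested genes were. Under the block 5 of them had an adjusted p under 0.05, where 7.67% of all tested genes fell. These were COX6B1, COX6A1, COX7A2, UQCRH and UQCRHL. COX6A1, COX7A2 and COX8A had an SE over 0.3, and their D replicates 2 and 3 were far apart (for COX8A, 68.8 and 163 CPM).

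In complex III, the cytochrome bc1 complex, UQCRFS1 encodes the Rieske iron-sulfur protein. It was at 85.9, 87.9 and 102 CPM in C and at 73.4, 63.1 and 65.3 CPM in D, with no overlap and a difference of −0.45 ± 0.13 (adjusted p = 0.154, and 0.0131 with the block). UQCRC1 and UQCRC2 encode the large core proteins on the matrix side. UQCRC1 was at 169, 194 and 210 CPM in C and at 147, 159 and 151 CPM in D. UQCRC2 was at 274, 275 and 271 CPM in C and at 237, 216 and 242 CPM in D. Both were therefore lower in every D library than in any C library, by −0.33 ± 0.10 (adjusted p = 0.164, and 0.0188 with the block) and −0.24 ± 0.08 (adjusted p = 0.219, and 0.0384 with the block). UQCRH, the hinge protein, differed by −0.30 ± 0.17 (adjusted p = 0.480, and 0.0311 with the block). UQCRHL, a near copy of UQCRH, had 48 to 91 counts and differed by −0.61 ± 0.23 (adjusted p = 0.250, and 0.0471 with the block), and reads of the pair may have been split between them. UQCRB, the subunit that helps hold ubiquinone, differed by −0.23 ± 0.10 without overlap of the groups (adjusted p = 0.312). The rest of complex III, UQCRQ, UQCR10 and UQCR11, differed by −0.19, −0.23 and −0.11.

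In complex II, succinate dehydrogenase, the clearest difference was in SDHC, which anchors the enzyme in the membrane. It was at 99.7, 107 and 89.8 CPM in C and at 91.4, 74.4 and 66.7 CPM in D. D replicate 1 lay within the C range, and the difference was −0.35 ± 0.14 (adjusted p = 0.297, and 0.0162 with the block). The catalytic flavoprotein SDHA, the iron-sulfur protein SDHB and the second anchor SDHD differed by −0.15 ± 0.24, −0.16 ± 0.25 and −0.17 ± 0.26, each smaller than its own SE. SDHA had its lowest value in replicate 3 of each group (102, 84.8, 121 and 91.7 CPM in C, D, I and DI), where the median member was highest.

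In complex I, NADH dehydrogenase, the 7 core subunits that carry flavin and iron-sulfur clusters had a median D vs C difference of −0.05 (4 of 7 below 0), and the 30 accessory ones −0.11 (22 of 30). Of the core subunits, NDUFS3 differed by −0.25 ± 0.13 and NDUFS1, the largest, by 0.26 ± 0.13, and neither passed the test (adjusted p = 0.405 and 0.409). NDUFS1 was at 247, 240 and 227 CPM in C and at 320, 238 and 298 CPM in D, so its groups overlapped. Among accessory subunits, NDUFA2 was at 34.5, 37.4 and 40.0 CPM in C and at 26.0, 21.9 and 30.8 CPM in D (difference −0.51 ± 0.19, adjusted p = 0.260, and 0.0298 with the block). NDUFB10, part of the proton-pumping membrane arm, differed by −0.31 ± 0.13 (adjusted p = 0.311, and 0.0209 with the block). NDUFA1, a small membrane-arm subunit, differed by −0.47 ± 0.24 (adjusted p = 0.419, and 0.0261 with the block). These were the 3 of 37 complex I members that fell under the block, a share near the 7.67% of all tested genes. With genes on the opposite strand, NDUFA1 shares 44.5% of its exon length, NDUFA2 13.0% and NDUFB10 0%. Whether this sharing bears on their counts was not tested. NDUFA4, which is now counted with complex IV, differed by 0.09 ± 0.14.

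In complex V, the 5 subunits of the catalytic F1 head had a median D vs C difference of −0.29, the 3 genes for the rotating c ring −0.23, and the 4 peripheral stalk genes −0.15, with every one of the 12 below 0. ATP5F1B, the beta subunit, was the most abundant member, at 1045, 988 and 1167 CPM in C and at 851, 712 and 996 CPM in D. D replicate 3 lay just above C replicate 2, and the difference was −0.32 ± 0.16 (adjusted p = 0.408, and 0.0119 with the block). ATP5F1C, the gamma shaft that turns inside the head, was at 316, 312 and 363 CPM in C and at 279, 227 and 307 CPM in D, without overlap (difference −0.29 ± 0.13, adjusted p = 0.372, and 0.0213 with the block). ATP5F1D and ATP5F1E, which join the shaft to the ring, differed by −0.33 ± 0.26 and −0.24 ± 0.30 (adjusted p with the block 0.0150 and 0.0439). For the alpha subunit ATP5F1A the difference was −0.17 ± 0.22 (adjusted p with the block 0.124). The c ring genes ATP5MC2 and ATP5MC3 differed by −0.23 ± 0.13 and −0.26 ± 0.16 (0.0347 and 0.0199 with the block). ATP5IF1, the inhibitor that stops the enzyme from running backwards, differed by −0.28 ± 0.12 (adjusted p = 0.339, and 0.0617 with the block).

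The comparison of DI with I repeats the doxycycline step in cells that also received IFNγ, and shares no library with D vs C. None of the 81 members passed (0.670% of all tested genes did), with 6 at an unadjusted p under 0.05 (5 lower, 1 higher). That count is below the background, since 12.2% of all tested genes reached this p in either direction and 6.67% by being lower. DESeq2 called 2, COX7C and UQCRFS1, both lower (2.50% of all tested genes were called lower). With the block, 8 members fell and 0 rose (6.62% of all tested genes fell): COX7C, UQCRFS1, SDHC, COX6B1, ATP5F1C, ATP5MC2, ATP5F1B and ATP5F1D. These 8 were all among the 20 of D vs C, which is 100% of the shorter list and 40% of the longer one. How often other tested genes recurred in this way was not counted. The median over the members was −0.08 (−0.01 over all genes), and 58 of 81 were below 0 (51.1% of all tested genes). By complex the medians were −0.02 in I, −0.16 in II, −0.16 in III, −0.13 in IV and −0.13 in V. With scaling by library size alone, the member median was 0.01 and the median over all genes 0.09, so this lean holds only relative to the other genes. The median was also 0.05 without I replicate 3, 0.01 without DI replicate 2 and −0.19 without I replicate 2.

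COX7C differed by −0.49 ± 0.10 between DI and I (adjusted p = 0.0554, and 0.00211 with the block). UQCRFS1 was at 93.7, 82.8 and 99.5 CPM in I and at 73.4, 53.7 and 71.6 CPM in DI (difference −0.47 ± 0.13, adjusted p = 0.173, and 0.0123 with the block). SDHC was at 120, 108 and 98.7 CPM in I and at 93.6, 81.2 and 70.9 CPM in DI (difference −0.41 ± 0.14, adjusted p = 0.268, and 0.0107 with the block). For these members every DI library lay below every I library. COX6B1 was at 94.5, 72.6 and 104 CPM in I and at 72.6, 52.4 and 64.8 CPM in DI, where the highest DI library just passed the lowest I library (difference −0.51 ± 0.19, adjusted p = 0.295, and 0.00732 with the block). UQCRC1 and UQCRC2 were also lower in every DI library, by −0.20 ± 0.10 and −0.19 ± 0.08 (adjusted p = 0.463 and 0.389), and UQCRC1 by −0.11 without I replicate 3. That made 5 members lower without overlap (8.41% of all tested genes) and 2 higher, NDUFA13 and NDUFA7 (8.17%). The last pair were at 0.873 to 2.88 CPM and 0.157 to 1.28 CPM in these libraries, within the range where few counts decide the value. COX7C, UQCRFS1, UQCRC1 and UQCRC2 were lower without overlap in both D vs C and DI vs I. The share of all tested genes lower without overlap in both was not counted, so this recurrence cannot be called particular to the members. Of the F1 head, ATP5F1B, ATP5F1C and ATP5F1D differed by −0.25 ± 0.16, −0.25 ± 0.13 and −0.26 ± 0.26 (adjusted p with the block 0.0425, 0.0490 and 0.0413). Without I replicate 3 the ATP5F1C difference was −0.15, and without DI replicate 2 it was −0.16. The c ring gene ATP5MC2 differed by −0.23 ± 0.13 (0.0481 with the block) and the stalk gene ATP5PD by −0.20 ± 0.10 (adjusted p = 0.501), or −0.10 without I replicate 1.

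The comparisons of I with C and DI with D asked what 24 hours of IFNγ did. In I vs C, 0 of 81 members passed by edgeR or DESeq2 (2.21% of all tested genes passed by edgeR), and 2 had an unadjusted p under 0.05, both higher (5.84% of all tested genes reached it by being higher). With the block 2 members rose (4.88% of all tested genes), NDUFA9 and COX7B. NDUFA9, an accessory subunit near the ubiquinone site of complex I, was at 27.7, 23.5 and 27.2 CPM in C and at 41.7, 30.1 and 40.4 CPM in I. The groups did not overlap (difference 0.52 ± 0.21, adjusted p = 0.498, and 0.0121 with the block). COX7B, a small subunit of complex IV, was at 95.6, 92.3 and 114 CPM in C and at 130, 104 and 153 CPM in I (difference 0.36 ± 0.16, adjusted p = 0.588, and 0.0187 with the block), which was 0.20 without I replicate 3. The median over members was −0.09 (−0.01 over all genes), and 64 of 81 were below 0 (51.6% of all tested genes). It was 0.02 without I replicate 2, −0.01 without C replicate 3 and −0.19 without I replicate 3. The I libraries lay below all C libraries for 6 members (6.24% of all tested genes), NDUFV1, NDUFS6, NDUFC2, ATP5IF1, ATP5MC1 and ATP5PB, and above them for 1, NDUFA9 (8.84%). NDUFV1, which holds the flavin of complex I, was at 164 to 193 CPM in C and 149 to 161 CPM in I without overlap (difference −0.16 ± 0.09, adjusted p = 0.864).

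In DI vs D, 0 members passed by edgeR or DESeq2 (1.72% of all tested genes passed by edgeR), and 1 had an unadjusted p under 0.05, COX7B (6.24% of all tested genes reached it, 4.62% by being higher). COX7B was at 89.6, 79.4 and 101 CPM in D and at 124, 102 and 128 CPM in DI, without overlap (difference 0.39 ± 0.16, adjusted p = 0.615). It was the 1 member that rose under the block (adjusted p = 0.0111, with 3.77% of all tested genes higher). NDUFA9 was at 31.5, 20.4 and 29.5 CPM in D and at 43.6, 27.4 and 35.6 CPM in DI (difference 0.39 ± 0.21, adjusted p with the block 0.0545), which was 0.22 without DI replicate 1 and 0.22 without D replicate 2. The DI libraries lay above all D libraries for 2 members, COX7B and UQCRC1 (5.77% of all tested genes), and below them for 0 (3.78%). The member median was 0.04 (−0.01 over all genes), and 26 of 81 were below 0 (52.9% of all tested genes). It was −0.06 without D replicate 2 and 0.13 without DI replicate 2. The test of whether the doxycycline difference depended on IFNγ called 0 members and 0% of all tested genes by edgeR, with 0 members at an unadjusted p under 0.05 (0.625% of all tested genes) and 0 members by DESeq2. The fitted interaction was above 0 for 67 of 81 members with a median of 0.11, against 48.6% of all tested genes and a median of −0.01. The member median was 0.01 without D replicate 2 and 0.24 without I replicate 3. That is, the fitted DI vs I difference was mostly above that of D vs C, and this passed the test for no member.

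Differences between replicate numbers were as large as those between groups. In each group replicate 2 had the lowest and replicate 3 the highest median level of the members. Relative to the mean of the C libraries, the median member was at −0.02, −0.09 and 0.12 on the log2 scale in C replicates 1, 2 and 3, and at −0.23, −0.41 and −0.00 in D. It was at −0.05, −0.31 and 0.08 in I and at −0.08, −0.41 and −0.04 in DI. Replicate 3 exceeded replicate 2 by a median of 0.22 to 0.40 over the members in the 4 groups, while the median over all genes moved by at most 0.01. For 34 of 81 members replicate 2 was the lowest in all 4 groups, 13 of 37 in complex I, 2 of 4 in II, 1 of 9 in III, 8 of 13 in IV and 10 of 18 in V. The share of all tested genes with this order was not counted, so it cannot be called particular to the members. What replicate numbers stood for is not given in the sources used here.

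**Figure D4:**
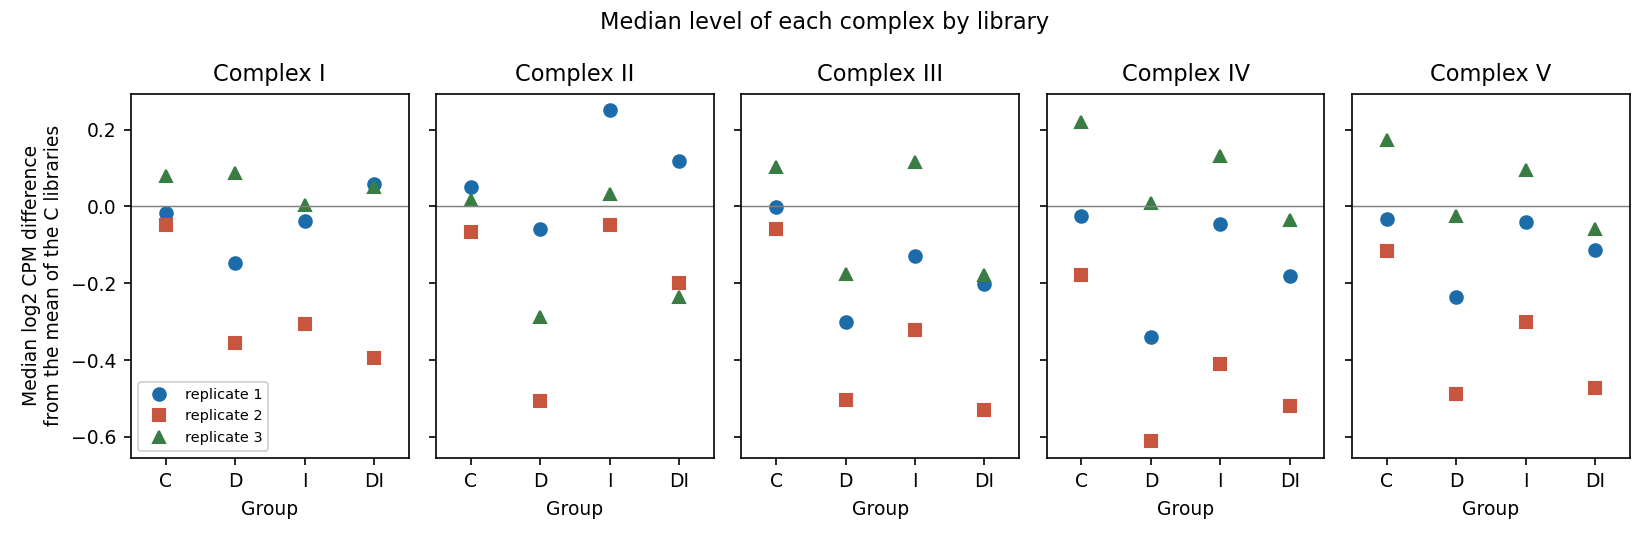
Median log2 CPM difference of the members of each complex from the mean of the C libraries (vertical axis) by group (horizontal axis), with 1 symbol per library, shaped by replicate number. Replicate 2 is the lowest of its group in complexes I, III, IV and V, from −0.05 in C for complex I to −0.61 in D for complex IV.

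Within the replicate numbers, the D minus C difference had a median over the members of −0.18, −0.35 and −0.15 in pairs 1, 2 and 3, with 65, 74 and 59 of 81 members lower. There were 49 members (60.5%) lower in all 3 pairs, against 22.4% of all tested genes, and 2 members higher in all 3 (2.47%, against 22.5%). For DI minus I the medians were −0.02, −0.11 and −0.16, with 34 members (42.0%) lower in all 3 pairs against 24.5% of all tested genes. For I minus C the medians were −0.02, −0.20 and −0.03, so pair 2 alone carried most of that lean, with 25 members (30.9%) lower in all 3 pairs against 23.7% of all tested genes. For DI minus D they were 0.13, 0.02 and −0.04. The 4 libraries with replicate number 2 can be left out: the D vs C member median was then −0.17 with 70 of 81 below 0, and 0 members passed.

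The 13 mitochondrially encoded subunit mRNAs share these complexes with the members. All 13 were below 0 in D vs C (median −1.96) and in DI vs I (median −1.40). By edgeR 6 and 3 were called, where 1.23% and 0.670% of all tested genes passed in either direction. With the replicate block 13 and 12 fell (7.67% and 6.62% of all tested genes fell). DESeq2 called 11 and 7, all lower (2.71% and 2.50% of all tested genes were called lower). Lower without overlap of the groups were 13 and 7 (9.10% and 8.41% of all tested genes). ND6, a membrane subunit of complex I, was at 821 ± 56.0 CPM in C and 132 ± 8.68 CPM in D (difference −2.63 ± 0.27, adjusted p = 0.00224). In I it was at 826 ± 117 CPM and in DI at 188 ± 85.9 CPM (difference −2.13 ± 0.26, adjusted p = 0.00497). For each count of a nuclear-encoded member there were 4.83 ± 1.26 mitochondrially encoded counts in the C and 4.78 ± 1.33 in the I libraries, but 1.42 ± 0.39 in the D and 1.92 ± 1.16 in the DI libraries (mean ± SD, n = 3). Poly(A) or ribosomal RNA selection is not given in the sources used here, and mitochondrial read shares depend on it.

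The 49 assembly factors, which build the complexes without being part of them, had medians near 0. Of 48 tested, 26 were below 0 in D vs C (median −0.05) and 26 in DI vs I (median −0.03). None passed by edgeR in either comparison, while DESeq2 called 3 and 3, all lower (2.71% and 2.50% of all tested genes were called lower). At an unadjusted p under 0.05 there were 5 in D vs C (4 lower, 1 higher) and 7 in DI vs I (6 lower, 1 higher), where 14.2% and 12.2% of all tested genes reached it. Under the block 5 and 5 fell, where 7.67% and 6.62% of all tested genes did. COX11, a copper chaperone for complex IV, was at 75.6 ± 7.69 CPM in C and 59.1 ± 1.95 CPM in D, and at 74.3 ± 1.98 CPM in I and 57.9 ± 0.895 CPM in DI. The differences were −0.36 ± 0.09 and −0.36 ± 0.09 (adjusted p = 0.0901 and 0.116, and 0.0114 and 0.0131 with the block). UQCC1, an assembly factor of complex III, differed by −0.56 ± 0.15 and −0.45 ± 0.15 (0.00212 and 0.00835 with the block). COA1, a complex IV and complex I assembly factor, differed by −0.25 ± 0.08 and −0.28 ± 0.08 (0.0349 and 0.0264 with the block). SDHAF2, which inserts flavin into SDHA, differed by −0.53 ± 0.18 and −0.39 ± 0.18 (0.0261 and 0.0838 with the block), and COX16 by −0.39 ± 0.20 and −0.65 ± 0.20 (0.158 and 0.0413 with the block).

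Among 7 subunits and electron carriers that the symbol rule leaves out, 5 were below 0 in D vs C and 0 passed by edgeR or DESeq2. At an unadjusted p under 0.05 there was 1 (14.2% of all tested genes reached it). ETFB, which passes electrons from fatty acid oxidation, differed by −0.59 ± 0.19 (0.0363 with the block), and CYC1, the cytochrome c1 of complex III, by −0.34 ± 0.24. Of 10 regulators of respiratory genes, 3 were below 0 and 7 above 0 in D vs C (median 0.21), and 0 passed by edgeR or DESeq2. Here too 1 had an unadjusted p under 0.05, against 14.2% of all tested genes. SP1 was at 86.8 ± 3.85 CPM in C and 110 ± 12.2 CPM in D (difference 0.34 ± 0.15, adjusted p = 0.319). GABPB1, a subunit of the ETS factor GABP, differed by 0.45 ± 0.23 and rose under the block (adjusted p = 0.0495). NRF1 differed by 0.04 ± 0.12, YY1 by 0.15 ± 0.08 and ESRRA by −0.22 ± 0.10, and none of these passed.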

How the data were processed

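RNA was measured in 12 libraries of SK-N-DZ cells by paired-end RNA-seq, per the labels. The authors deposited raw read counts per gene (Ensembl IDs with symbols), and these deposited counts are the only values used. The aligner, annotation, strand setting and build are not given in the sources used here. All 43769 IDs matched GENCODE 29, which gave positions, exon lengths and exon overlaps. The deposited tables of the authors' own DESeq2 comparisons (fold changes and p-values) were not used, nor were 18 per-library columns with names that match no label.

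Counts were tested with edgeR 4.0.16 in R 4.3.3 (filterByExpr with a minimum count of 10, TMM scaling, quasi-likelihood fit over the 4 groups in 12 libraries, Benjamini-Hochberg adjustment over 15828 genes, threshold 0.05, two-sided). Standard errors are the log2 fold change divided by the square root of the F statistic. CPM used TMM-scaled library sizes, and per-library log2 CPM a prior count of 2. DESeq2 1.42.0, other scalings, no filter, the replicate number as a block, only the compared groups, a threshold of 0.1 and leaving out each library were tried as alternatives. The numbers paired the libraries, since same-numbered deviations from group means correlated at 0.338 to 0.804 in 18 of 18 pairs (other pairs −0.628 to 0.143). No 2 libraries of a group agreed within sampling noise. The test was tried on simulated counts with known changes. Totals of 16469832 to 21790869 counts set the precision.

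The members and gene lists were chosen with earlier results of these data known, so no list result is independent support. A few listed genes are not reported here. Named genes were, per comparison, up to 10 members with the smallest p, the members highest and lowest per length in each complex, the tissue isoforms, the untested members, and up to 5 genes of each other list.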

Additional observations from a re-analysis of the deposited data

How the results depend on the processing

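With the replicate number as a block, the count of members called rose from 1 to 20 in D vs C, from 0 to 8 in DI vs I, from 0 to 2 in I vs C and from 0 to 1 in DI vs D, and it stayed at 0 for the interaction. DESeq2 called 5 (D vs C) and 2 (DI vs I). A threshold of 0.1 gave 2 and 1. In D vs C, 0 members were called without the low-count filter (at least 1 count), with only the C and D libraries, and, in an alternative chosen after seeing the data, without replicate number 2 in every group. The last 2 fits used fewer libraries, and the cause of the lost call was not tested in any of them. Leaving out each library in turn gave 0 to 0 members called in all 5 comparisons. It gave member medians from −0.30 to −0.10 in D vs C, −0.19 to 0.05 in DI vs I, −0.19 to 0.02 in I vs C, −0.06 to 0.13 in DI vs D and 0.01 to 0.24 for the interaction, so all 5 moved by over 1.5 times and those of DI vs I, I vs C and DI vs D changed sign.

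The ARID1A difference between DI and I passed with the replicate block (−0.45, adjusted p = 0.0111) and by DESeq2 (−0.44, adjusted p = 0.00453). It ranged from −0.48 to −0.39 without 1 library, and that of D vs C from −0.21 to −0.04. Among the named members, 360 alternative values kept direction and side of the threshold, 23 passed newly, 9 no longer passed and 0 reversed. The 17 block values and 6 DESeq2 values account for the 23, and all 9 are COX7C in D vs C. The COX7C value there was −0.56 (adjusted p = 0.0538) without the filter, −0.55 (0.137) with only the C and D libraries, −0.57 (0.0619) without replicate number 2 and −0.60 to −0.51 without 1 library. Over the 36 tested members without exon overlap, a split also chosen after seeing the data, the medians were −0.22 (D vs C) and −0.13 (DI vs I). With library size alone the member medians were −0.12 (D vs C, 0.09 over all genes) and −0.00 (DI vs D, −0.05 over all genes).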

Other observations

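Members of the same complex did not share 1 pattern over the libraries. In complex II, SDHA and SDHC were lowest in replicate 3 of D and DI (SDHC 66.7 and 70.9 CPM, SDHA 84.8 and 91.7 CPM), whereas SDHB and SDHD were lowest in replicate 2 (SDHB 38.1 and 37.5 CPM, SDHD 10.5 and 14.8 CPM). In complex III, UQCRB was highest in replicate 2 of D, I and DI (115, 120 and 118 CPM), where the median member was lowest. The near-floor complex I members NDUFV2, NDUFA7 and NDUFA13 stand beside other subunits of the same complex at higher levels, such as NDUFV1 at 32.5 CPM per kb. NDUFA4L2, a relative of NDUFA4 known from low oxygen that the symbol rule leaves out, was at 46.8 ± 47.2 CPM in C and 10.8 ± 7.54 CPM in D (log2 fold change −2.11, adjusted p = 0.366), and at 60.8 ± 62.9 CPM in I and 13.1 ± 12.8 CPM in DI (−2.22, adjusted p = 0.398). Like COX4I2, it did not pass the test in either comparison.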
